A study of Mus musculus with 10 samples.

Results

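Expression of 45 genes of the epidermis and hair follicle was examined in subcutaneous (s.c.) flank tumors of obese mice, first tumor by tumor and then by treatment. The genes were taken from a list by their mouse gene symbol, and all 45 were found among the 55401 gene identifiers of the count table. They comprise 16 keratins, 7 desmosome proteins, 14 genes of the cornified envelope and its enzymes, and 8 regulators, channels and surface proteins. RNA had been sequenced from 10 tumors grown from KPN1.1, a mouse lung adenocarcinoma line, after 75000 cells were injected into the flank of male C57BL/6J mice on a high-fat diet that were 7 to 17 weeks old. Of these, 5 tumors came from mice given PBS vehicle and 5 from mice given liraglutide, an agonist of the glucagon-like peptide-1 receptor, at 0.2 μg per gram of body weight each day by intraperitoneal injection from the time tumors could be felt. All 10 tumors thus shared the cell line, the diet, the site and the sex of the host, and mice were euthanized between days 19 and 22. A piece of each tumor was frozen for RNA. Removal of skin and fat is described in the study for tumors that went to flow cytometry and is not described for the frozen pieces, and RNA of cultured KPN1.1 cells was not analysed here.

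The epidermis is a stratified epithelium. Its basal cells carry filaments of keratin 5 paired with keratin 14, and cells that leave the basal layer replace these with keratin 1 and keratin 10. Keratins 6, 16 and 17 are made in hair follicles and in wounded or overgrowing skin, and keratins of the inner root sheath are made in growing hair. The uppermost cells join their desmosomes and a layer of crosslinked proteins, among them filaggrin, involucrin and the small proline-rich proteins, into the cornified envelope. Simple epithelia such as those of the lung use keratins 8, 18, 19 and 7 in place of these filaments.

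Total counts lay between 9927942 and 14480593 per tumor, so that 3 counts, the floor used here, stood for 0.207 to 0.315 CPM, the unit of counts scaled to the size of the library (here after TMM scaling) that is used throughout. Floors cover counting error only. Genes of simple epithelium were present. Krt8 lay between 1631 and 3294 CPM, Krt18 between 1039 and 1999, Krt19 between 724 and 2262, and the adhesion protein gene Cdh1 between 560 and 2236. Nkx2-1, a transcription factor of lung epithelium, lay between 17.7 and 132 CPM. In the same lists, Krt7 reached 411, Sftpb 530 and Foxa2 68.8 CPM. The others were lower. Epcam, another epithelial marker, lay between 0.163 and 4.63 CPM. Cldn4 reached at most 0.98, Cldn7 2.20, Sftpc 5.96, Napsa 2.55, Hopx 1.06, Sftpa1 17.3 and Scgb1a1 20.4 CPM. Which of these genes KPN1.1 cells make was not tested. In such bulk RNA, fewer cells of a type and less RNA per cell cannot be told apart. Of the 45 genes, 44 had at least 1 count in at least 1 tumor, 42 had at least 10 counts over the 10 tumors, and 11 reached 10 counts in each tumor.

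Liraglutide tumor 2 held the highest level of 32 of the 42 genes with at least 10 counts. Among all 17464 genes that passed the filter on low counts, the same tumor was highest for 6.80%, and among the 21 epidermal genes that passed, it was highest for 14. Liraglutide tumor 4 came second for 16 of the 42 genes and liraglutide tumor 5 for 14. These 3 tumors were not the deepest libraries, at 12208093, 10336934 and 12875902 counts. Vehicle tumor 3, the shallowest library, was highest for 4 genes and held counts for 41 of the 45. The numbers of genes with 0 counts were 20, 14, 4, 11 and 23 in vehicle tumors 1 to 5, and 23, 4, 23, 2 and 6 in liraglutide tumors 1 to 5. Liraglutide tumors 1 and 3 thus lacked counts for as many of these genes as vehicle tumor 5, and for more than vehicle tumor 1. The highest tumor exceeded the median tumor over 5 times for 10 of the 21 epidermal genes that passed the filter, against 1.02% of all genes that passed.

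**Figure D1:**
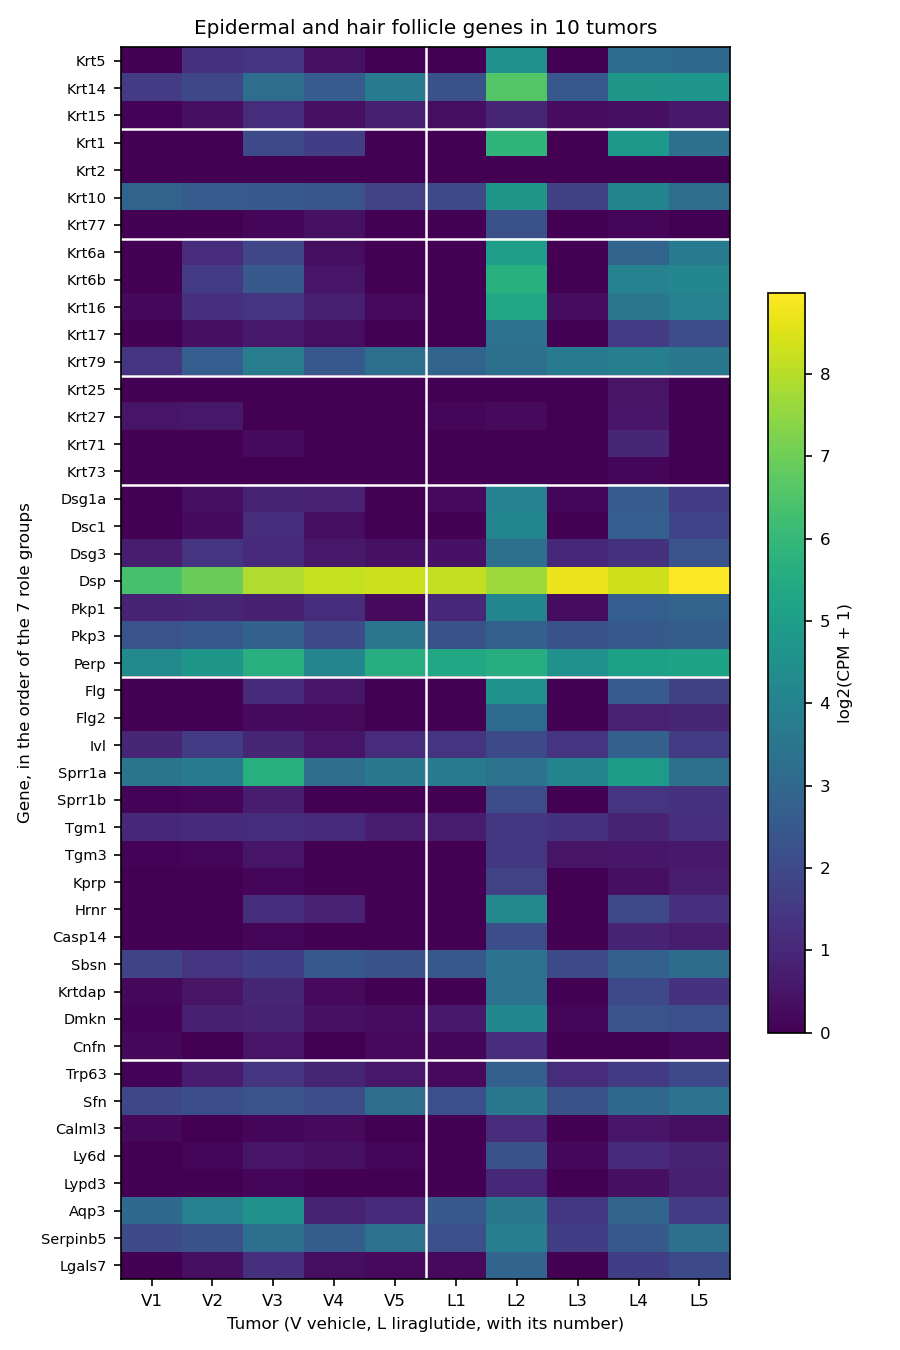
Level of each of the 45 genes (rows, in 7 role groups separated by white lines) in each of the 10 tumors (columns, 5 vehicle and 5 liraglutide), as log2(CPM + 1). The column of liraglutide tumor 2 is the brightest for most rows, liraglutide tumors 4 and 5 are next, and Dsp, Perp and Sprr1a are bright in every column.

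Among the basal keratins, Krt5 (ENSMUSG00000061527.7, chromosome 15, 101615505 to 101621346 on the minus strand of GRCm39) had 0, 14, 16, 4 and 0 counts in vehicle tumors 1 to 5 and 0, 275, 0, 83 and 100 counts in liraglutide tumors 1 to 5. The level in liraglutide tumor 2, 22.5 CPM, was at least 86.6-fold higher than the floor of 3 counts in any of the 4 tumors without a count. Krt14, its filament partner (chromosome 11, 100093988 to 100098490), was counted in every tumor, at 2.00, 2.84, 8.30, 5.10 and 11.7 CPM in the vehicle tumors and 3.72, 93.9, 4.55, 26.2 and 25.5 CPM in the liraglutide tumors. The same 3 liraglutide tumors were high for both genes, whereas vehicle tumor 5, with 143 counts of Krt14, had no count of Krt5. Krt15, a keratin of basal cells and of the hair follicle bulge, stayed between 0.0691 and 1.26 CPM and was highest in vehicle tumor 3.

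The suprabasal keratins behaved likewise. Krt1 (chromosome 15, 101753861 to 101759229) had 0, 0, 29, 25 and 0 counts in vehicle tumors 1 to 5 and 0, 713, 0, 284 and 116 in liraglutide tumors 1 to 5. Its level in liraglutide tumor 2, 58.2 CPM, was at least 191-fold above the floor of the 5 tumors without a count. Krt10 (chromosome 11, 99276072 to 99280195), the partner of Krt1, was present throughout, at 6.36, 5.07, 4.62, 4.02 and 2.36 CPM in the vehicle tumors and 2.94, 26.0, 2.28, 15.4 and 8.34 CPM in the liraglutide tumors. Krt10 thus had 92 counts in vehicle tumor 1 and 50 in vehicle tumor 2, where Krt1 had none. On the annotation used, 146 exonic bases of Krt10 are shared with Gm11940 on the other strand, and the strand setting of the counting is not given in the sources used here. Genes on the other strand also share 539 bases of Dsp, 474 of Krt6a, 230 of Lypd3, 189 of Tgm1, 100 of Krt5 and 4 of Cnfn. Krt77 had 45 of its 51 counts in liraglutide tumor 2, and Krt2, a keratin of the late suprabasal layers, had 0 counts in all 10 tumors.

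**Figure D2:**
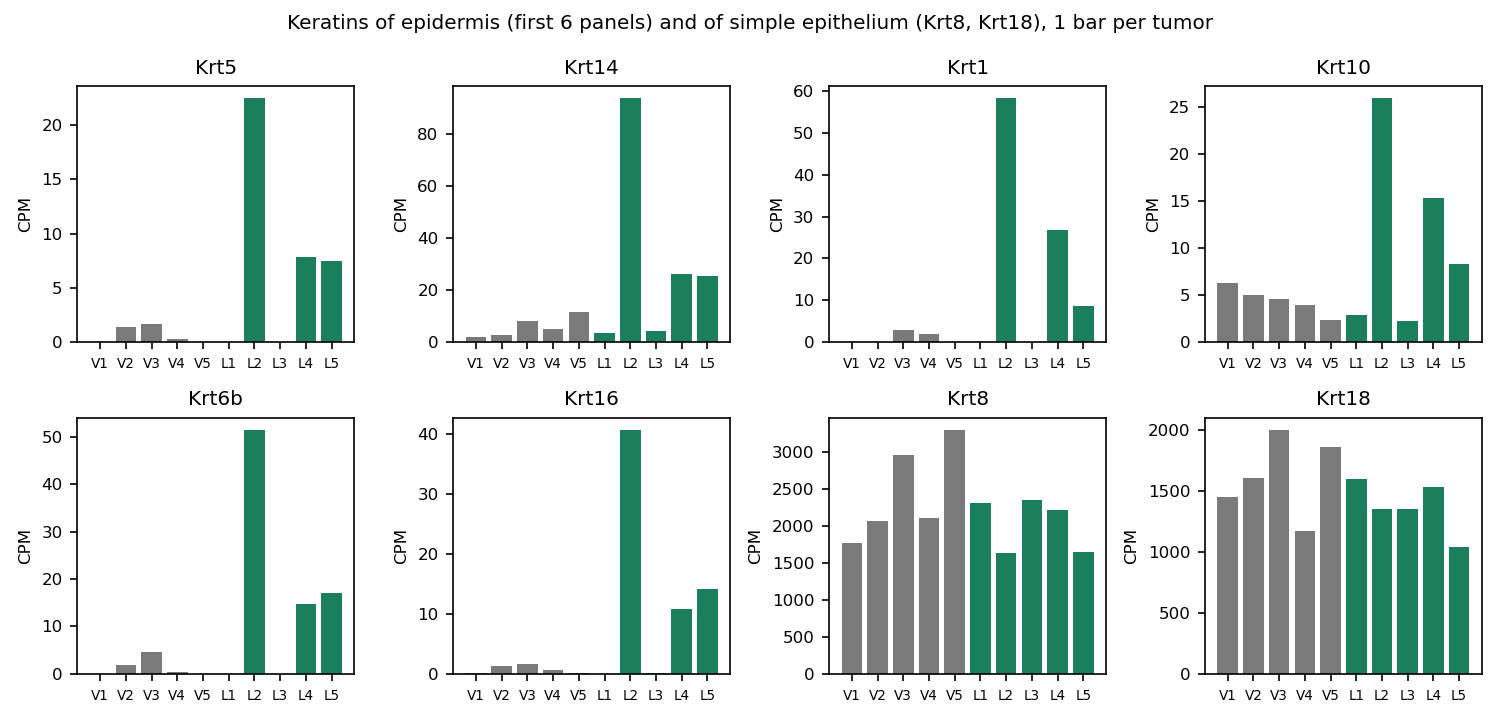
CPM (y axes, linear, each starting at 0) of 6 epidermal keratins and of the simple epithelium keratins Krt8 and Krt18, with 1 bar for each of the 10 tumors (grey vehicle V1 to V5, green liraglutide L1 to L5). Krt5, Krt1, Krt6b and Krt16 stand near 0 in vehicle tumors 1 and 5 and liraglutide tumors 1 and 3 and peak in liraglutide tumor 2, Krt14 and Krt10 peak in the same tumor but are above 2 CPM in every tumor, and Krt8 and Krt18 stay above 1000 CPM.

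The keratins of stressed epidermis followed Krt5. Krt16 (chromosome 11, 100136917 to 100139795) lay at 0.138, 1.32, 1.58, 0.669 and 0.163 CPM in the vehicle tumors and at 0, 40.7, 0.228, 10.9 and 14.1 CPM in the liraglutide tumors. Krt6b (chromosome 15, 101584458 to 101588722) lay at 0, 1.93, 4.73, 0.418 and 0 CPM in the vehicle tumors and at 0, 51.5, 0, 14.8 and 16.97 CPM in the liraglutide tumors. Krt6a lay at 0, 1.22, 2.73, 0.251 and 0 CPM in the vehicle tumors and at 0, 31.5, 0, 6.52 and 11.8 CPM in the liraglutide tumors. Vehicle tumors 2 and 3 were the highest vehicle tumors for all 3 genes, below liraglutide tumors 2, 4 and 5. Krt6a and Krt6b are close copies, since 26.6% of the 100-base windows of Krt6a exons also occur in Krt6b and 30.1% of those of Krt6b in Krt6a, so reads could be shared between them. Krt17 had 115 of its 192 counts in liraglutide tumor 2. Krt79, a keratin of the follicle infundibulum, did not share this order, at 1.59, 5.47, 13.02, 4.60 and 8.55 CPM in the vehicle tumors and 6.48, 8.98, 12.4, 13.3 and 11.1 CPM in the liraglutide tumors.

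Ratios of partner keratins were formed per kilobase of exon, in tumors with at least 10 counts of both genes. Krt5 stood at 42.4% and 17.2% of Krt14 in vehicle tumors 2 and 3 and at 20.3%, 25.4% and 24.8% in liraglutide tumors 2, 4 and 5. In vehicle tumor 5, a count of 0 for Krt5 allows at most 0.0178 of the Krt14 level, less than the 0.172 of the lowest tumor in which both were counted. Krt1 stood at 31.8% and 25.1% of Krt10 in vehicle tumors 3 and 4 and at 108%, 83.9% and 49.9% in liraglutide tumors 2, 4 and 5. In vehicle tumor 1, by contrast, a count of 0 allows at most 0.0157. The ratio of each pair therefore differed between tumors, and Krt14 and Krt10 did not move in proportion to Krt5 and Krt1. Among the stress keratins, Krt6a per kilobase was 2.32, 2.27 and 2.45 times Krt17 in liraglutide tumors 2, 4 and 5. Set against Krt16 in those tumors and in vehicle tumors 2 and 3, Krt6a ranged from 0.405 to 1.17 and Krt6b from 0.876 to 2.19. The simple epithelium pair Krt8 and Krt18 kept a ratio between 0.887 and 1.32 in all 10 tumors. Set against Krt8, Krt14 per kilobase was 6.01% in liraglutide tumor 2, 1.24% and 1.62% in liraglutide tumors 4 and 5, and between 0.118% and 0.369% in the other 7 tumors.

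**Figure D3:**
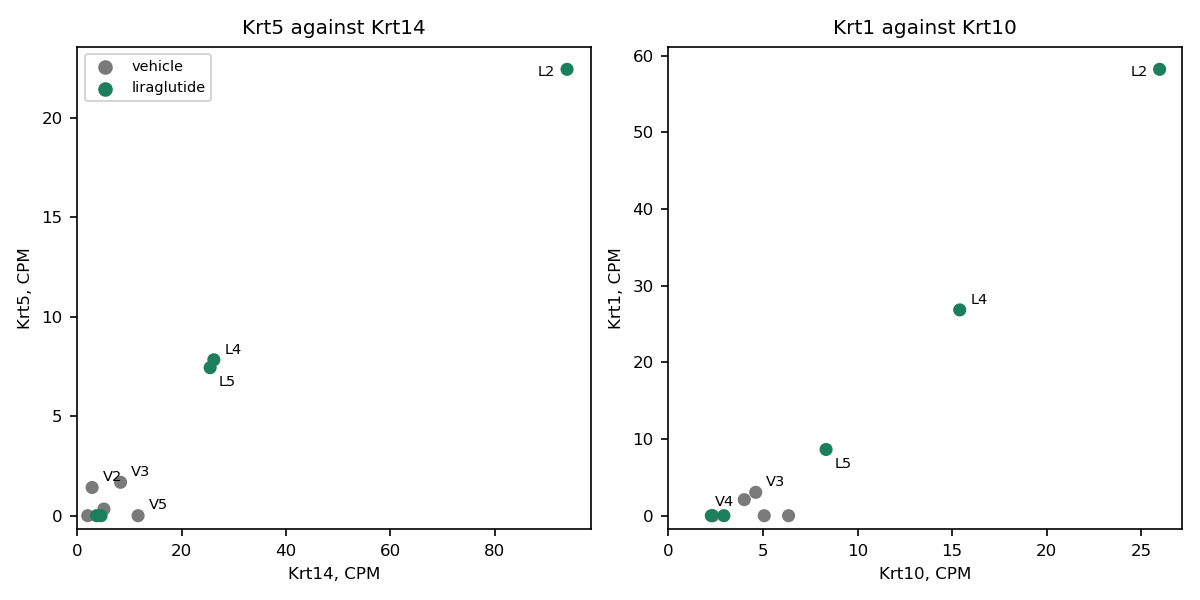
Krt5 against its partner Krt14 (left) and Krt1 against its partner Krt10 (right), both axes in CPM, with 1 point for each of the 10 tumors (grey vehicle, green liraglutide). Points at 0 on the y axis lie at several values on the x axis, up to 11.7 CPM for Krt14 and 6.36 CPM for Krt10, and liraglutide tumor 2 is the upper right point of both panels.

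Keratins of the inner root sheath were near the floor. Krt71 had 2 counts in vehicle tumor 3, 10 in liraglutide tumor 4 and 0 in the other 8 tumors. Krt27 had 6 and 5 counts in vehicle tumors 1 and 2, and 1, 2 and 5 counts in liraglutide tumors 1, 2 and 4. Krt25 had 4 counts and Krt73 had 1 count, all in liraglutide tumor 4. The tumor with the most epidermal keratin, liraglutide tumor 2, was thus not the tumor with the most inner root sheath keratin. A list of 17 hair shaft and follicle genes summed to between 0.502 and 3.40 CPM, again highest in liraglutide tumor 4, where trichohyalin (Tchh), a protein that hardens the inner root sheath, contributed 2.55 CPM.

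Desmosome genes differed in their order among the tumors. Desmoplakin, encoded by Dsp (chromosome 13, 38335230 to 38382553), anchors keratin to every desmosome, in simple epithelia too, and was the most abundant of the 45 genes per kilobase. Dsp lay at 82.4, 125, 239, 288 and 313 CPM in the vehicle tumors and at 283, 201, 418, 322 and 504 CPM in the liraglutide tumors, so that liraglutide tumor 2 was the lowest of its group. Perp, a membrane protein of desmosomes, lay at 18.9, 25.7, 48.8, 16.2 and 47.8 CPM in the vehicle tumors and at 40.3, 47.4, 22.5, 33.1 and 36.2 CPM in the liraglutide tumors, and the groups overlapped widely. Pkp3 stayed between 3.18 and 10.4 CPM and was highest in vehicle tumor 5. Dsc1, Dsg1a, Dsg3 and Pkp1, which stratified epithelia use, were highest in liraglutide tumor 2. Dsc1 rested at 0 counts in vehicle tumors 1 and 5 and liraglutide tumors 1 and 3 and stood at 16.4 CPM in liraglutide tumor 2. Dsg1a, which shares 21.9% of its 100-base windows with Dsg1b, stood at 14.7 CPM in liraglutide tumor 2 and at most at 0.840 CPM in a vehicle tumor. Dsg3, a cadherin of the basal layers, stood at 9.06 CPM in liraglutide tumor 2 against 0.326 to 1.62 CPM in the vehicle tumors, and Pkp1 at 16.2 CPM against 0.163 to 1.26 CPM. Liraglutide tumors 1 and 3 lay within those vehicle ranges for both genes, at 0.346 and 0.986 CPM of Dsg3 and 1.04 and 0.228 CPM of Pkp1.

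Among the 14 genes of the cornified envelope and its enzymes, 12 were highest in liraglutide tumor 2, and for 8 of them more than 90% of all counts came from liraglutide tumors 2, 4 and 5. Filaggrin (Flg), which bundles keratin in the uppermost living cells, lay at 0, 0, 1.16, 0.418 and 0 CPM in the vehicle tumors and 0, 23.5, 0, 5.10 and 2.23 CPM in the liraglutide tumors. Hrnr, a relative of filaggrin, reached 17.7 CPM, Dmkn 17.5 CPM and Krtdap 9.47 CPM in liraglutide tumor 2, and Casp14, a protease of the cornified layer, had 43 of its 61 counts there. Sprr1a (chromosome 3, 92390424 to 92393208), a crosslinked envelope protein, was present in every tumor and had another order, at 10.2, 11.96, 49.1, 8.28 and 11.2 CPM in the vehicle tumors and 11.9, 9.47, 15.7, 28.4 and 8.93 CPM in the liraglutide tumors. Vehicle tumor 3 was highest for Sprr1a, and liraglutide tumor 2 was among the lower tumors. Its family member Sprr1b, with which it shared no 100-base window, had 41 of its 85 counts in liraglutide tumor 2 and 0 counts in 4 tumors. Sbsn lay at 2.56, 1.62, 2.21, 4.60 and 3.67 CPM in the vehicle tumors and 4.49, 9.80, 3.18, 5.76 and 8.04 CPM in the liraglutide tumors, and 574 of its exonic bases are shared with Tmem147os on the same strand. Tgm1, a transglutaminase that crosslinks the envelope, stayed between 0.605 and 1.71 CPM.

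Because Sprr1a and Sprr1b belong to one gene cluster and yet differed in order among the tumors, the 250 bases before the transcription start are shown for both, together with those of Ivl and Flg from the same chromosome and of Krt10, which like Sprr1a was counted in every tumor. Sequences are from RefSeq on GRCm38.p6 and are written 5′ to 3′ on the strand of the gene, with capitals for the TATA box (TATAAA) and the AP-1 motif (TGANTCA). Positions on the build are chr3:92485882-92486131 for Sprr1a, chr3:92438780-92439029 for Sprr1b and chr3:92573736-92573985 for Ivl, all on the minus strand, chr3:93273296-93273545 for Flg on the plus strand, and chr11:99389365-99389614 for Krt10 on the minus strand.
Sprr1a: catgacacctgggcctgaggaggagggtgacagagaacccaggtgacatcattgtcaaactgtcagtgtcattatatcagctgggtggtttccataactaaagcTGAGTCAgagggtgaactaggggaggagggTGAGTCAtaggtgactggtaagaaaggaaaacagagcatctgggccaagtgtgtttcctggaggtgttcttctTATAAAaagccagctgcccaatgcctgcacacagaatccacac
Sprr1b: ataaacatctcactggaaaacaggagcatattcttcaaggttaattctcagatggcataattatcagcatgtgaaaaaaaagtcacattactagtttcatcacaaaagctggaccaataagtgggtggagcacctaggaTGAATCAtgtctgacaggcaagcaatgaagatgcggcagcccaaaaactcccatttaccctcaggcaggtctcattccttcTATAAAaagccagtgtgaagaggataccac
Ivl: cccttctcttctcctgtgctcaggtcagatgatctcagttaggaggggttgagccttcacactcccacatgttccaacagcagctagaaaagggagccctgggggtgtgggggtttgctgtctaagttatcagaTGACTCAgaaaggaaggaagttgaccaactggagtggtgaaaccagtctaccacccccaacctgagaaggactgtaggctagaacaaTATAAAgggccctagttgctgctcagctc
Flg: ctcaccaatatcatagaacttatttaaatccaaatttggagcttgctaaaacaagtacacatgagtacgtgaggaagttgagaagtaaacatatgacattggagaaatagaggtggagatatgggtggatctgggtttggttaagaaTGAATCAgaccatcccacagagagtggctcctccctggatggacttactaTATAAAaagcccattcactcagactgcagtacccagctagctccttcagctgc
Krt10: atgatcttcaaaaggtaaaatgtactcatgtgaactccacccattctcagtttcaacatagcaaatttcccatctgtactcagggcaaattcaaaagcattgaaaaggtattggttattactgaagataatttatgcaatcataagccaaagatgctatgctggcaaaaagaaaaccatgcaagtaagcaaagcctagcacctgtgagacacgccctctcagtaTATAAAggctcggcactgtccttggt
Sprr1a held a TATA box beginning 43 bases before the start and AP-1 motifs beginning 146 and 116 bases before it, and Sprr1b held a TATA box at 30 and an AP-1 motif at 111, so both motifs occurred before each gene although their levels by tumor differed. Searched on both strands in the promoter windows of 29 members for which RefSeq windows were at hand, which run from 250 bases before to 50 after the start, TATAAA occurred in 13 (44.8%) against 15.7% of all 27025 genes, and TGANTCA in 9 (31.0%) against 8.97%. The AP-2 letters GCCNNNGGC occurred in 2 (6.90%) against 18.5%. These are matches of letters, not sites of binding, and the TATA box and AP-1 matches in the windows shown do not overlap.

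Of the regulators, channels and surface proteins, 7 of 8 were highest in liraglutide tumor 2. Trp63, the transcription factor that stratified epithelia depend on, lay at 0.0691, 0.608, 1.58, 0.920 and 0.489 CPM in the vehicle tumors and 0.173, 5.80, 1.21, 1.89 and 2.90 CPM in the liraglutide tumors, with 187 counts in all. Serpinb5 (maspin) lay at 3.25, 3.65, 8.61, 5.27 and 9.12 CPM in the vehicle tumors and 3.54, 13.4, 2.20, 4.63 and 8.64 CPM in the liraglutide tumors, and the groups overlapped over most of their range. Aqp3, a channel for water and glycerol in the basal epidermis and in several simple epithelia, was the exception, at 7.32, 14.2, 23.6, 0.837 and 1.14 CPM in the vehicle tumors and 4.67, 11.3, 1.74, 6.52 and 2.01 CPM in the liraglutide tumors, highest in vehicle tumor 3. Calml3, Ly6d, Lypd3 and Lgals7 each had 0 counts in at least 2 tumors and reached 1.22, 3.67, 1.06 and 6.69 CPM in liraglutide tumor 2.

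Of the 45 genes, 13 had 0 counts in each of vehicle tumors 1 and 5 and liraglutide tumors 1 and 3 while being counted in liraglutide tumor 2. These were Krt5, Krt1, Krt77, Krt6a, Krt6b, Krt17, Dsc1, Flg, Flg2, Kprp, Hrnr, Casp14 and Lypd3. At the other end, the 11 genes that reached 10 counts in each of the 10 tumors were Krt14, Krt10, Krt79, Dsp, Pkp3, Perp, Sprr1a, Sbsn, Sfn, Aqp3 and Serpinb5, and their highest and lowest tumors differed by 3.02-fold for Perp and by 46.9-fold for Krt14. Of these 11, 5 were highest in liraglutide tumor 2. When the 6 genes that simple epithelia also make (Dsp, Perp, Sfn, Pkp3, Aqp3 and Serpinb5) were set aside, the summed level of the remaining 39 was 27.5, 42.5, 109, 39.2 and 41.8 CPM in the vehicle tumors and 34.6, 534, 44.8, 209 and 163 CPM in the liraglutide tumors. The groups overlapped in this sum, since liraglutide tumors 1 and 3 lay among the vehicle tumors. The sum over all 45 genes was 146, 219, 439, 357 and 432 CPM in the vehicle tumors and 374, 825, 497, 587 and 729 CPM in the liraglutide tumors, and only liraglutide tumor 1 lay among the vehicle tumors. Much of that sum was Dsp, on average 209.5 of 318 CPM with vehicle and 346 of 602 CPM with liraglutide.

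Genes of muscle, fat, dermal fibroblasts and leukocytes were highest in tumors other than liraglutide tumor 2. Skeletal muscle genes (12 listed) summed to between 82.6 CPM in vehicle tumor 1 and 621 CPM in liraglutide tumor 5, with 241 CPM in liraglutide tumor 2. They were also high in vehicle tumor 3 (425 CPM) and in liraglutide tumors 3 and 4 (431 and 419 CPM), so that vehicle tumor 3 and liraglutide tumors 4 and 5 were high for both muscle and epidermal genes. By treatment the muscle sum was 206 ± 134 CPM with vehicle and 379 ± 174 CPM with liraglutide (SD, n = 5 each), and all 11 tested muscle genes had a positive log2 fold change (47.4% of all tested genes), 2 of them at an unadjusted P under 0.05 (3.97%). The part of muscle or other flank tissue in the epidermal values was not tested. Neb, which encodes the giant actin-binding protein nebulin and had the highest CPM of the list before any correction for length, ranged from 27.6 to 166 CPM. Adipocyte genes (9 listed) summed to between 43.1 and 143 CPM, with 45.6 CPM in liraglutide tumor 2, the second lowest. Dermal fibroblast genes (7 listed) summed to between 813 and 2196 CPM, with 1127 CPM in that tumor, of which Col1a1, a collagen chain, made up 588 CPM. Leukocyte genes (6 listed), led by Lyz2, summed to between 203 and 422 CPM, with 230 CPM in it. Melanocyte genes (7 listed, 3 of them detected) summed to at most 1.39 CPM, in liraglutide tumor 2, followed by 1.37 CPM in liraglutide tumor 3. Sebaceous gland genes (6 listed) summed to at most 2.42 CPM, and Cd207, which marks Langerhans cells, reached at most 0.489 CPM. These low levels were above the floor in some tumors. Within these lists, Pmel, a melanosome protein, was highest in liraglutide tumor 2 at 16 counts (1.31 CPM), Scd3 had 4 to 23 counts per tumor, and Awat2, a wax synthase, had 11 counts in liraglutide tumor 4. Whether adjoining skin was in any of the pieces was not tested.

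**Figure D4:**
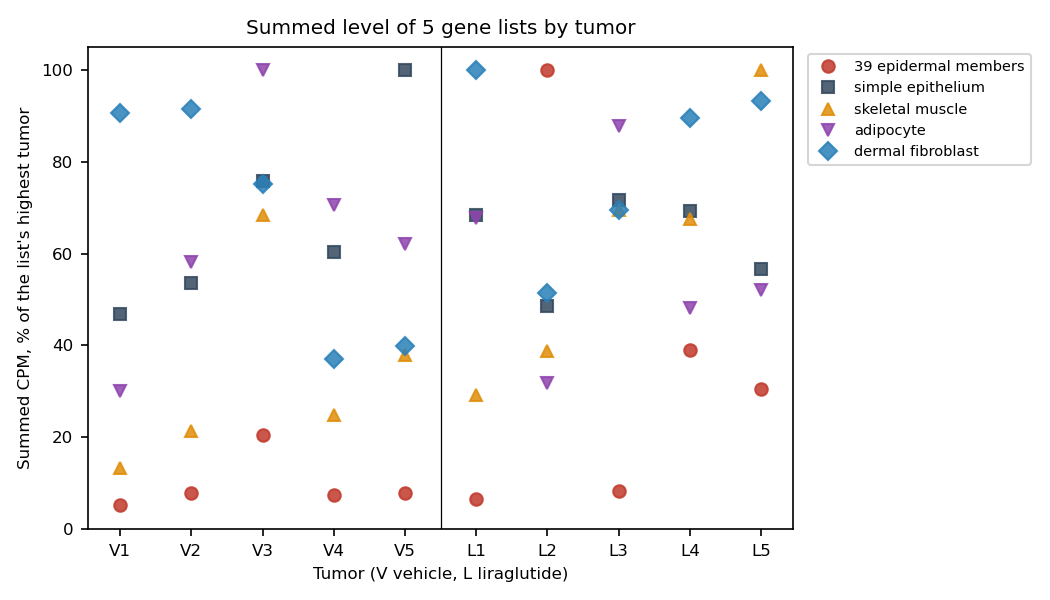
Summed CPM of 5 gene lists in each of the 10 tumors (x axis, V vehicle and L liraglutide), as a percentage of that list's highest tumor. The 39 epidermal genes (red circles) peak in liraglutide tumor 2, skeletal muscle in liraglutide tumor 5, adipocyte genes in vehicle tumor 3, dermal fibroblast genes in liraglutide tumor 1 and simple epithelium genes in vehicle tumor 5.

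By treatment, 0 of the 21 tested genes were called with edgeR's quasi-likelihood test (a call needed an adjusted P under 0.05 together with a log2 fold change beyond 0.58 in either direction), and 0% of all 17464 tested genes were called. limma-voom also called 0 genes, and DESeq2 called 25 of the 4254 genes to which it gave an adjusted P (0.588%). Of the 21 epidermal genes only Dsp had an adjusted P in DESeq2 (0.292), so the other 20 could not be called there. At an unadjusted P under 0.05, 11 of the 21 were higher in liraglutide tumors (3.97% of all tested genes were) and 0 were lower (5.62%). The 11 were Krt5, Krt14, Krt1, Krt6a, Krt6b, Krt16, Dsg3, Pkp1, Ivl, Sbsn and Trp63, and their edgeR P values adjusted over all genes lay between 0.482 and 0.515. By DESeq2, 8 of the 21 were under 0.05 (10.6% of all genes in either direction), and by limma-voom 3 were (9.95%), namely Dsp, Ivl and Sbsn and no keratin. The CPM ranges of vehicle and liraglutide tumors overlapped for all 21 genes, whereas 1.49% of all tested genes did not overlap. A positive log2 fold change was found for 18 of the 21 (47.4% of all tested genes), and the median was 1.29 against -0.02 over all tested genes. That median changed with the filter, to 2.51 over the 44 genes with any count and to 0.69 over the 11 with 10 counts in each tumor. A fold change over 2 on the log2 scale was found for 7 of the 21 (0.0916%). The other 24 of the 45 did not pass the filter on low counts, and since a gene could pass through the tumors where it was high, these counts describe the tested genes alone.

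Krt1 had the largest log2 fold change, 4.24 ± 1.60 (SE, edgeR adjusted P = 0.499), from 1.03 ± 1.45 CPM (SD, n = 5) with vehicle to 18.7 ± 24.6 CPM (SD, n = 5) with liraglutide. The SD exceeded the mean in both groups. Krt16 followed at 4.15 ± 1.31 (SE, edgeR adjusted P = 0.482) and Krt6a at 3.66 ± 1.48 (SE, edgeR adjusted P = 0.503). With limma-voom the log2 fold changes were smaller, 3.05 for Krt1, 2.18 for Krt16 and 2.27 for Krt6a. Over tumors, a two-sided exact permutation test of log2 CPM, which cannot go below P = 0.00794 with these group sizes, gave 0.246 for Krt1, 0.198 for Krt16, 0.286 for Krt6a, 0.254 for Krt5 and 0.135 for Krt14. Of the 21 genes, Ivl (exact permutation P = 0.0317) and Sbsn (exact permutation P = 0.0397) were under 0.05 by this test, neither adjusted for the number of genes, and 8.50% of all tested genes were. Ivl, which encodes involucrin, an early protein of the envelope, lay at 0.967, 2.03, 0.945, 0.418 and 1.22 CPM in the vehicle tumors and 1.64, 3.02, 1.59, 5.76 and 1.94 CPM in the liraglutide tumors, and vehicle tumor 2 lay above liraglutide tumors 1, 3 and 5. Values near or below 0 on the log2 scale were found for Aqp3 (-0.84 ± 0.82, SE), Sprr1a (-0.28 ± 0.52), Pkp3 (-0.28 ± 0.31), Serpinb5 (0.12 ± 0.48) and Perp (0.19 ± 0.32).

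**Figure D5:**
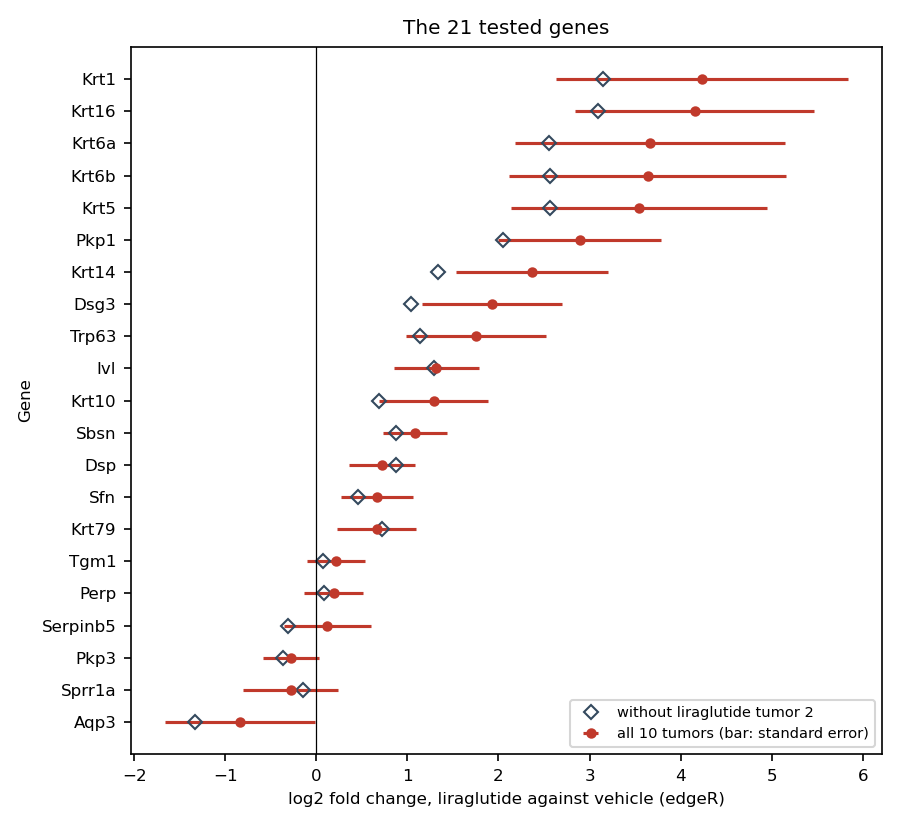
Log2 fold change of liraglutide against vehicle tumors (x axis) for the 21 tested genes (y axis), with all 10 tumors (red points, bars of 1 SE from edgeR) and without liraglutide tumor 2 (open diamonds). The fold changes range from 4.24 for Krt1 to -0.84 for Aqp3, and the diamond of Krt14 falls from 2.36 to 1.33.

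Several of these numbers moved when a tumor was left out. Without liraglutide tumor 2, the 21 tested genes had 5 with an unadjusted P under 0.05, all higher, and a median log2 fold change of 0.88, while 13.8% of all genes were under 0.05 in that fit in either direction. Without liraglutide tumor 1 or 3, 26 epidermal genes passed the filter and 17 were under 0.05, against 8.43% and 6.02% of all genes. The 5 without liraglutide tumor 2 were Krt16 (3.09 on the log2 scale), Pkp1 (2.04), Ivl (1.29), Sbsn (0.87) and Dsp (0.88), with Ivl at 1.32 and Dsp at 0.72 when all 10 tumors were used. Krt14 fell from 2.36 ± 0.83 (SE) to 1.33 on the log2 scale without liraglutide tumor 2, and Krt10 from 1.29 ± 0.59 to 0.69. Leaving out each tumor in turn, Krt1 ranged from 3.15 (without liraglutide tumor 2) to 5.14 (without vehicle tumor 3), and Krt6a from 2.55 to 4.88 without the same tumors. For the sum of the 39 genes, the log2 ratio of the group means (52.0 ± 32.4 CPM with vehicle and 197 ± 203 CPM with liraglutide, SD, n = 5 each) was 1.92, and it was 1.12 without liraglutide tumor 2 and 2.39 without vehicle tumor 3. For the sum of all 45 genes, much of it Dsp, the log2 ratio was 0.92.

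Another 48 epidermal genes were examined in the same way. Of the 44 with at least 10 counts, 22 were highest in liraglutide tumor 2, among them loricrin, the kallikreins Klk5, Klk7 and Klk8, the ceramide and lipid genes Abca12, Alox12b and Elovl4, and the desmosomal cadherins Dsc2, Dsc3, Dsg1b and Dsg1c. Klk7, a protease that sheds cornified cells, reached 6.53 CPM in liraglutide tumor 2 and at most 0.210 CPM in a vehicle tumor. Plec, which encodes the cytolinker plectin and had the highest CPM of this list before correction for length, lay between 1119 and 2073 CPM and was highest in vehicle tumor 5. Of the 26 tested, 0 were called, 5 were higher (3.97% of all tested genes) and 1 was lower (5.62%) at an unadjusted P under 0.05. The 2 whose groups did not overlap (1.49% of all tested genes) were Jup, named here after its values were seen, which encodes plakoglobin and was higher with liraglutide (0.35 on the log2 scale, edgeR adjusted P = 0.482), and S100a14, likewise chosen, which was lower (-0.78, edgeR adjusted P = 0.482).

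The tested genes outside the list of 45 whose log2 CPM was most like the summed level of the 39, by Pearson's r over the 10 tumors, were Spink5 (0.94), Pof1b (0.93), Dsc3 (0.92), Cstdc5 (0.90), Csta1 (0.87), Fabp5 (0.87), Ddx46 (0.84), Gm12229 (0.84), Nectin4 (0.84) and Gjb2 (0.83). The points are tumors that share the sum and its peak, so r is a description. Spink5, an inhibitor of epidermal proteases, lay at 0, 1.014, 2.52, 0.335 and 0.163 CPM in the vehicle tumors and 0, 15.7, 0, 3.87 and 4.32 CPM in the liraglutide tumors. Dsc3, a desmosomal cadherin, reached 27.5 CPM in liraglutide tumor 2. Gjb2, a gap junction protein, was about as high in liraglutide tumor 5 (9.31 CPM) as in liraglutide tumor 2 (9.14 CPM). Ddx46, an RNA helicase used by all cells, spanned only 118 to 137 CPM.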

How the data were processed

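RNA was sequenced from 10 tumors, 5 per group, with groups and tumor numbers taken from the sample titles. The authors made dUTP-marked libraries after removing ribosomal RNA, mapped the read pairs with Bowtie 1.0.1 and TopHat 2.0.13 and deposited whole-number counts per gene from featureCounts with no normalization. The study's methods name GRCm39, whereas the submitters' processing notes list mm10 and GRCh38. The annotation release, strand setting and treatment of reads with several positions are not given in the sources used here. Identifiers were matched without version to GENCODE M39 (51731, 93.38%, holding 98.31% of counts, 35 of them in the same version), which gave symbols, GRCm39 positions and exon lengths. RefSeq promoters are on GRCm38.p6.

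Counts were filtered with filterByExpr, scaled by TMM and tested by edgeR 4.0.16 in R 4.3.3 (quasi-likelihood F test, treatment alone), with Benjamini-Hochberg adjustment over 17464 genes. CPM were computed from the same factors, and log2 CPM used a prior count of 2. DESeq2 1.42.0 and limma-voom (limma 3.58.1), other scalings and filters, robust empirical Bayes, the tumor number as a block and each tumor left out were alternatives. P values measure the spread between tumors, each taken to be from a separate mouse. Tumors of one group differed by at least 8.38 in chi-square per degree of freedom, above sampling noise. In a simulated liraglutide against vehicle comparison of 17464 genes, edgeR found 49.5% of 95 genes with a true log2 change of 1 and 81.3% of 96 with one of 2, and 11 of its 136 calls were false. The changed genes were drawn from all tested genes and shifted in every liraglutide tumor. These rates therefore need not hold for epidermal genes, many of which were high in some liraglutide tumors only.

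Values in every tumor are given for the pair of genes with the highest mean CPM in each of 7 role groups, the 3 tested genes with the largest fold change, and Trp63, Krt5, Krt14, Krt1 and Krt10, with Ivl, Flg and Spink5 added after their values were seen. Genes named outside the 45 were markers of simple epithelium, the leading gene of other lists and the 10 genes most alike. Others were chosen after their values were seen. The members, lists and tests were chosen with earlier results of these data known. Protein sequences were not analysed here, and alleles of the cell line and another searched motif are not reported here.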

Additional observations from a re-analysis of the deposited data

Results flagged for a closer look

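Of 38 groups of 5 tumors examined for a single tumor far from the others (Dixon's test, critical value 0.71), 5 stood out. For normally spread values chance flags about 1 in 20. CPM need not be spread so, and the 5 are a description. Krt14 in liraglutide tumor 2, at 93.9 CPM, lay apart from the next liraglutide tumor at 26.2 CPM. The summed level of the 39 genes in vehicle tumor 3, at 109 CPM, lay apart from the next vehicle tumor at 42.5 CPM, and Sprr1a in the same tumor, at 49.1 CPM, lay apart from the next at 11.96 CPM. Krt71 had 0.21 CPM in vehicle tumor 3 and 0.945 CPM in liraglutide tumor 4, with 0 in the other tumors of each group, and the first of these is 2 counts, under the floor of 3. A group with a single nonzero tumor is flagged whatever its count.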

How the results depend on the processing

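Under the 8 alternative fits and the 10 fits that left out a tumor, 0 of the epidermal genes each fit tested (11 to 44 of the 45) were called, and in DESeq2 only Dsp had an adjusted P. Among all genes, DESeq2 called 25, and every other fit called 0. Leaving out each tumor in turn, the count of genes called was 0 to 0, and the median log2 fold change of the tested epidermal genes lay between 0.88 (without liraglutide tumor 2) and 2.13 (without liraglutide tumor 1). The log2 ratio of the summed level of all 45 genes was 0.92 (0.74 to 1.06 leaving out tumors), and 1.92 (1.12 to 2.39) without the 6 genes simple epithelia make. Serpinb5 changed sign with limma-voom (-0.0222) and with the replicate block (-0.0311), and ranged from -0.32 to 0.34 leaving out tumors, Pkp3 from -0.42 to 0.0833 and Sprr1a from -0.64 to 0.52. Aqp3 stayed below 0 but ranged from -1.33 (without liraglutide tumor 2) to -0.16 (without vehicle tumor 3), and was -0.15 with limma-voom. The cause was not tested. The number of tested genes of the 45 was 44 (median 2.51) with all genes that had a count and 11 (median 0.69) when 10 counts were required in each tumor.

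Tumors with the same number in both groups were from separate mice, and the correlations of their deviations from the group means were 0.35, 0.57, -0.08, 0.07 and 0.39, so the numbers were not taken to pair the tumors, and among the vehicle tumors only number 2 was most like its own number. With the number as a replicate block, 0 genes were called (smallest edgeR adjusted P = 0.228), 8 of the 21 genes had an unadjusted P under 0.05 (14.8% of all genes in either direction) and the median was 1.05. Depth limits the genes under about 10 counts, where a count of 0 allows up to 0.207 to 0.315 CPM.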
